A study of Homo sapiens with 12 samples.

Results

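The genes described here are 9 of the p53 axis, the CDK inhibitors with their neighbour MTAP, and the D cyclins: MDM2, CDKN1A, CDKN1B, CDKN2A, CDKN2B, CDKN2C, MTAP, CCND2 and CCND3. They were taken by symbol from a table of 17589 genes, all 9 were found and all 9 passed the filter on low counts. CDKN1A, CDKN2A, CDKN2B and CCND2 passed it only through some of the groups, as given below. To them were added the 7 transcripts of CDKN2A in a table of 90572 transcripts. RNA-seq was performed on 12 libraries labelled as YT cells, a human natural-killer-like lymphoid cell line, after infection with a lentiviral vector, with 3 libraries in each of 4 groups and no stimulation. CTRL cells expressed eGFP, hnCD16 cells expressed a high-affinity, non-cleavable form of the Fc receptor CD16, and FR1 and FR2 cells expressed fusion receptors in which the outer part of hnCD16 is joined to activating signalling domains, DAP10 and CD3ζ in both, with 2B4 besides in FR1. All 4 groups were thus transduced cells, the constructs were driven by the constitutive EF1A promoter, and eGFP-positive cells were sorted as a population and expanded before use. Nothing in the labels says that the 3 libraries of a group came from separate cultures, so p-values measure the spread between these libraries, which may be technical.

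The protein p53 switches on genes that stop the cell cycle or trigger cell death after damage. MDM2 is the ligase that marks p53 for destruction and is itself switched on by p53, which closes a feedback loop, and CDKN1A (p21) is the target through which p53 blocks the cyclin-dependent kinases, or CDKs. CDKN2A has separate first exons that give unrelated proteins: p14ARF, which holds back MDM2, and p16INK4a, which blocks CDK4 and CDK6. CDKN2B (p15) and CDKN2C (p18) block the same pair of kinases, CDKN1B (p27) blocks mainly CDK2 complexes, and the D cyclins CCND2 and CCND3 are the partners that switch CDK4 and CDK6 on so that the retinoblastoma protein RB releases E2F factors. MTAP, an enzyme of the methionine salvage pathway, lies beside CDKN2A on the short arm of chromosome 9 and is often lost with it in tumours.

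Because the p53 axis turns on the sequences that p53 recognizes, the start regions of MDM2 and CDKN1A are shown first. The p53 consensus is a pair of adjacent 10-base repeats, is the same on both strands, and was searched in the bases upstream of 35116 starts of 27305 genes listed by RefSeq (GRCh38.p14). Of these starts, 0.561% had a stretch within 2 mismatches of the consensus in their nearest 250 bases and 4.36% had one within 3 mismatches. The inner MDM2 start had both, at 94 bases upstream with 2 mismatches and at 56 bases upstream with 3, written in capitals in the 250 bases before this start (chr12:68808767-68809016, plus strand, the last 15 of them inside an annotated MDM2 exon). CDKN1A had none within 3 mismatches in its nearest 250 bases, but had stretches with 2 mismatches at 2265 and 1383 bases upstream, a distance (2500 bases) within which 6.52% of all starts had a stretch that close. They are shown in capitals behind 40 preceding bases (chr6:36676409-36676468 and chr6:36677291-36677350, plus strand). The last 9 bases of the farther site lie inside an annotated CDKN1A exon, and both distances are from the RefSeq start.
MDM2, upstream of the inner start: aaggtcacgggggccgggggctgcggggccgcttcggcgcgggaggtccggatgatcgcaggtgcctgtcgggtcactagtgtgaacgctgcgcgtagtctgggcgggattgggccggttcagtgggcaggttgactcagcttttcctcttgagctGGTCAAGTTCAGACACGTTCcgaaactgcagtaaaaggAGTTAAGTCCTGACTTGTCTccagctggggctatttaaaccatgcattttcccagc
CDKN1A, farther site: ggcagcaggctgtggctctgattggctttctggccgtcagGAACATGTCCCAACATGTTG
CDKN1A, nearer site: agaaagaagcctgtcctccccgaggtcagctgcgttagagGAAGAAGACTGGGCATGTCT

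For CDKN2A the choice of start decides which protein is made, so the 250 bases before each of its starts in the RefSeq table are shown, with the CG dinucleotides, the sites of DNA methylation, in capitals. The outer start, upstream of the first exon of p14ARF, had 24 CG dinucleotides (chr9:21995325-21995574, minus strand), and the inner start, upstream of the first exon of p16INK4a, had 20 (chr9:21974858-21975107, minus strand). The median over all starts was 11, and 23.7% of starts had at least 24. Methylation was not measured in these libraries.
CDKN2A, outer start: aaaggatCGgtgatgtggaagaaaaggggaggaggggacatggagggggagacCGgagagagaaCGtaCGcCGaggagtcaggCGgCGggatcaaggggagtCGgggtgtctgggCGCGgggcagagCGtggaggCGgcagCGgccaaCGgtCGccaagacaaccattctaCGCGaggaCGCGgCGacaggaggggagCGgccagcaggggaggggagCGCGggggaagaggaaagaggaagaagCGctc
CDKN2A, inner start: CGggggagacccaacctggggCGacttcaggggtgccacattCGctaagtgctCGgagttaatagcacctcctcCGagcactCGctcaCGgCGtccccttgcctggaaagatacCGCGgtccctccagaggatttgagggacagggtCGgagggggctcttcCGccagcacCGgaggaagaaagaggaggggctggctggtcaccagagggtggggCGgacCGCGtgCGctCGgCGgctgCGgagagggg

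The libraries held 17714550 to 18729013 counts. On the first principal component, which took 96.3% of the variance, the 6 FR1 and FR2 libraries lay on one side and the 6 CTRL and hnCD16 libraries on the other, so a difference between receptors and any other difference between these cultures cannot be told apart. That includes a difference of cell line: whether both pairs of groups are the same line was not tested, and every fold change given across the pairs is a difference between the libraries so labelled. The labelled cell type was checked against marker lists. The summed level of 12 NK cell markers was 78.6 to 88.5 CPM (counts scaled by library size) in CTRL and 78.7 to 89.7 in hnCD16, beside 3969 to 4177 with FR1 and 3841 to 3945 with FR2. NCR1 and GNLY, both on the NK list, reached at most 5 and 4 counts in a CTRL library. CD2 and TYROBP, on the same list and at most 6 counts in CTRL and hnCD16, were at 0 in all FR1 and FR2 libraries. The summed level of the 7 T cell markers found was 657 to 771 CPM in CTRL and 741 to 798 in hnCD16, against 36.3 to 40.2 in FR1 and 41.7 to 43.1 in FR2, and CD3D alone had 7757 to 9903 counts per CTRL or hnCD16 library and 0 to 3 per FR1 or FR2 library. All 7 T cell markers were called lower in FR1 and FR2 against either other group, and of the 10 tested NK markers 6 were called higher and 3 lower. Over the 5 listed B cell genes in the table the sum was 15.1 to 19.5 CPM in CTRL and hnCD16 and 44.7 to 52.9 in FR1 and FR2, over 6 myeloid genes 4.27 to 6.12 and 8.22 to 14.5, and over 5 epithelial genes 4.41 to 6.53 in all 12 libraries. Of these, 4 B cell, 4 myeloid and 3 epithelial genes were tested, and FR1 against hnCD16 gave 1 higher and 2 lower, 2 higher, and 0 calls. These markers move with the same pair of groups as the genes below, and their part in the results was not tested. In RNA from a whole culture, fewer cells of a kind and less RNA per cell cannot be told apart.

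A gene was called where the log2 fold change was at least 1 in size and the adjusted p (edgeR quasi-likelihood test, Benjamini-Hochberg over 13657 genes) at most 0.05. Between FR1 and hnCD16, 7 of the 9 members were called, 5 of them higher in FR1 (MDM2, CDKN1A, CDKN2A, CDKN2B and CCND2) and 2 lower (MTAP and CCND3), where 38.3% of all tested genes were called, 18.7% higher and 19.6% lower. The same counts were found for FR2 against hnCD16 (39.5% of all genes called, 19.6% higher and 19.8% lower), for FR1 against CTRL (38.0%, 18.3% and 19.8%) and for FR2 against CTRL (38.2%, 18.7% and 19.6%). By the adjusted p alone, all 9 members passed in each of these 4 comparisons, against 79.1%, 80.1%, 79.9% and 80.2% of all genes in the same order. CDKN1B and CDKN2C differed by less than a log2 fold change of 1 everywhere. These comparisons share libraries (hnCD16 or CTRL, FR1 or FR2), so they are not separate evidence. CDKN1A, CDKN2A, CDKN2B and CCND2 had at most 10 counts in any CTRL or hnCD16 library and passed the filter through FR1 and FR2. With hnCD16 and CTRL fitted alone only 5 members were tested. In the comparisons with FR1 or FR2 a call for those low members could thus only be higher, which limits the reading of the member counts beside the shares of all genes.

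Between hnCD16 and CTRL, 1 member was called, CCND2, against 0.527% of all genes (0.212% higher and 0.315% lower). Of all calls in this comparison 40.3% were higher, and 23.2% when counts were scaled by library size only, which moved the median of all genes to -0.12. By the adjusted p alone, 5 members passed (MDM2, CDKN1B, CDKN2C, CCND2 and CCND3), against 43.0% of all genes. Between FR1 and FR2, 0 of 9 members were called, against 1.93% of all genes (0.439% higher in FR1 and 1.49% lower). By the adjusted p alone, in edgeR, 6 members passed there (MDM2, CDKN1B, CDKN2A, CDKN2C, CCND2 and CCND3), against 36.2% of all genes, with log2 fold changes from -0.31 to 0.19.

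**Figure D1:**
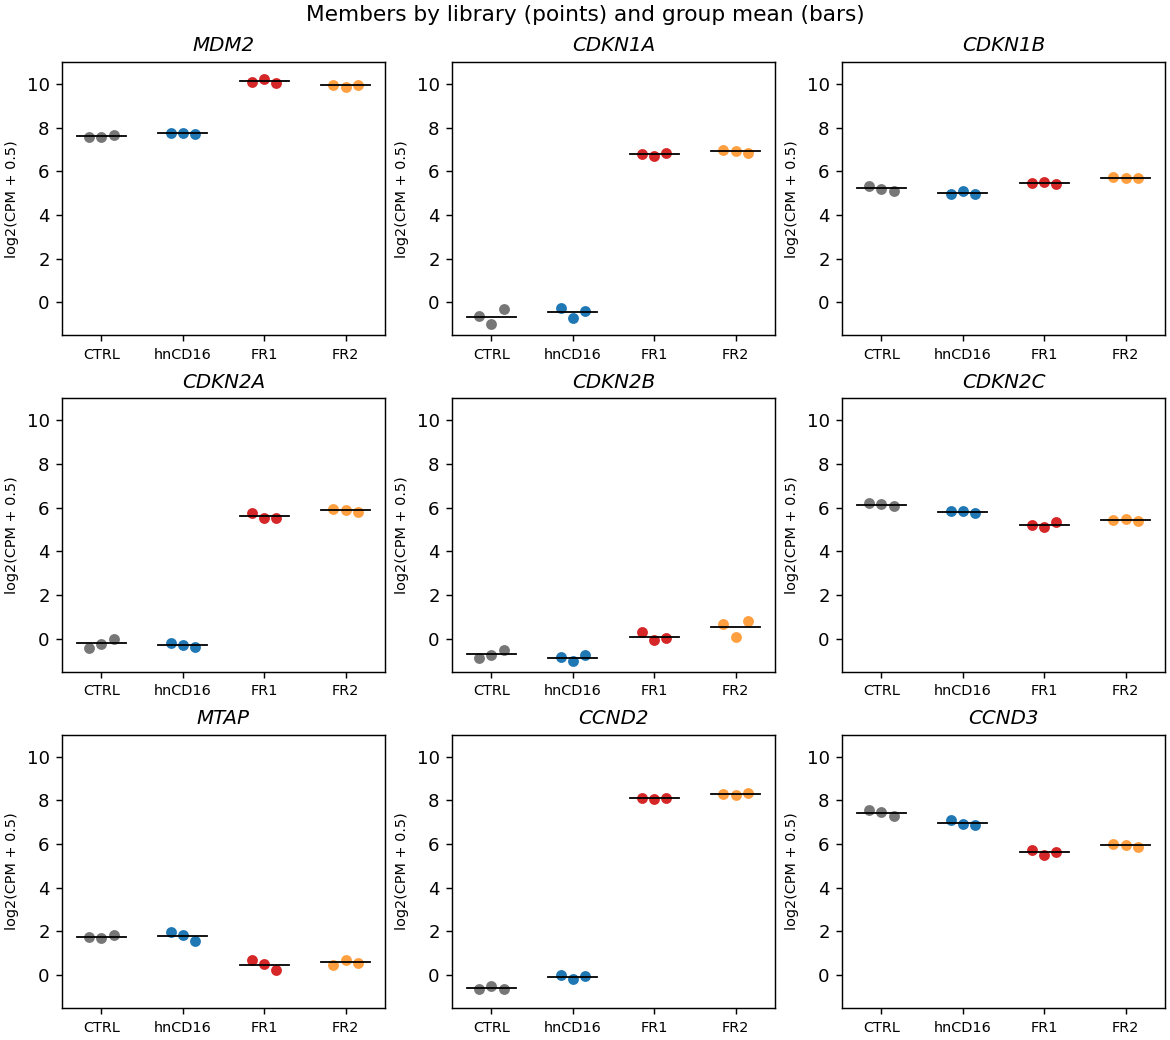
Level of each member in the 12 libraries, as log2(CPM + 0.5), with 1 point per library and a bar at the mean of each group of 3. For MDM2, CDKN1A, CDKN1B, CDKN2A, CDKN2B and CCND2 the FR1 and FR2 points all lie above those of the other groups, CDKN1B by the smallest margin in fold size, and for CDKN2C, MTAP and CCND3 all lie below.

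MDM2 (chr12:68808177-68845544 in GENCODE release 44 on GRCh38) was the most abundant member per unit of length in FR1 and FR2. Its level in TPM, a measure scaled by transcript length, was 45.9, 49.2 and 53.2 in the CTRL libraries, 48.3, 49.9 and 50.4 in hnCD16, 247, 277 and 248 with FR1, and 236, 213 and 232 with FR2. CTRL and hnCD16 overlapped on this scale, and FR1 and FR2 stood apart from them and from each other. The rise over hnCD16 was 5.20-fold for FR1 (log2 fold change 2.38, standard error 0.0554, edgeR adjusted p = 4.91e-17) and 4.55-fold for FR2 (2.19, 0.0550, edgeR adjusted p = 1.43e-16). FR1 was above FR2 by 0.19 on the log2 scale (edgeR adjusted p = 0.00816), and hnCD16 above CTRL by 0.14 (edgeR adjusted p = 0.0415).

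The increase of MDM2 was uneven across its 8 listed transcripts. NM_001367990 had 480 to 695 counts per library without a fusion receptor, 13215 to 14986 with FR1 and 10540 to 12003 with FR2. Its share of MDM2 counts was 15.1% in CTRL, 15.3% in hnCD16, 71.9% with FR1 and 65.1% with FR2, with no overlap between FR1 or FR2 and CTRL or hnCD16 (exact two-sided permutation p = 0.1 for each, the smallest that 3 against 3 libraries allow). NM_002392 had 321 to 1407 counts in CTRL and hnCD16 and 603 to 1405 in FR1 and FR2, and its log2 fold change from hnCD16 was 0.30 for FR1 (edgeR adjusted p = 0.801) and -0.13 for FR2 (edgeR adjusted p = 0.929). Reads that fit several transcripts were divided among them by RSEM, so these are estimates, and which start each transcript uses was not analysed here.

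CDKN1A (chr6:36676460-36687337) was close to undetected in one pair of groups and well expressed in the other. The counts were 3, 0 and 6 in CTRL, 6, 2 and 5 in hnCD16, 1919, 1811 and 1998 with FR1, and 2219, 2160 and 2008 with FR2. No FR1 or FR2 library came near the range of CTRL and hnCD16. The sums of 5728 counts in FR1 and 6387 in FR2 against 13 in hnCD16 gave ratios of 472 (95% counting interval 276 to 886) and 516 (302 to 970) after scaling by library size. The fitted log2 fold changes from hnCD16 were 8.84 (standard error 0.164) and 8.97 (0.163), with edgeR adjusted p = 2.36e-18 and 1.65e-18. FR1 and FR2 differed by -0.13 (edgeR adjusted p = 0.177), and the difference between hnCD16 and CTRL, 0.61 with a standard error of 0.633, was not detectable at this depth.

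The list of p53 target genes held 38 genes, of which 34 were tested. Between FR1 and hnCD16, 23 were higher, 1 was lower and 10 were not called, and between FR2 and hnCD16, 24 were higher and 1 was lower. Among all genes 18.7% were called higher and 19.6% lower in the first comparison, and 19.6% and 19.8% in the second. The median log2 fold change over the list was 1.58 in FR1 and 1.78 in FR2 against hnCD16, beside -0.01 and -0.03 over all tested genes. Against CTRL, 24 were higher and 1 lower in both FR1 and FR2. MDM2 and CDKN1A are 2 of these genes. The targets CDKN1A, PLK2 and BBC3 had few counts in CTRL and hnCD16 and passed the filter through FR1 and FR2. A call for them could thus only be higher. TP53I3, with few counts in FR1 and FR2, could only be called lower. Such genes limit the reading of the list counts beside the shares of all genes.

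The targets named by rank (the 4 highest called in FR1 against hnCD16) were CDKN1A, PLK2, BBC3 and TNFRSF10B. BBC3 (PUMA), which starts apoptosis at the mitochondrion, had a mean of 0.150 CPM in CTRL, 0.179 in hnCD16, 9.37 with FR1 and 11.5 with FR2, and its log2 fold change from hnCD16 was 5.65 (standard error 0.246, edgeR adjusted p = 3.92e-13) in FR1. TNFRSF10B, a death receptor for TRAIL, had 3.12 CPM in CTRL, 3.03 in hnCD16, 118 with FR1 and 128 with FR2, with log2 fold changes from hnCD16 of 5.28 and 5.40 (edgeR adjusted p = 4.98e-20 and 3.32e-20). PLK2, a kinase, had 85 counts over the FR1 libraries and 130 over the FR2 libraries against 1 over the hnCD16 libraries, which gives ratios of 91.0 (15.9 to 3640) and 137 (24.1 to 5440).

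TP53I3 (PIG3), an oxidoreductase, was the target that fell. Its mean was 19.2 CPM in CTRL, 21.5 in hnCD16, 0.154 with FR1 and 0.434 with FR2, a log2 fold change from hnCD16 of -7.07 for FR1 (standard error 0.171, edgeR adjusted p = 8.23e-17) and -5.61 for FR2 (0.141, edgeR adjusted p = 1.45e-16). Targets that did not pass in any FR comparison with CTRL or hnCD16 included PMAIP1, with means of 40.9 CPM in CTRL, 62.6 in hnCD16, 48.7 with FR1 and 58.0 with FR2, and PPM1D, a phosphatase that limits p53, with 30.6, 29.4, 37.2 and 35.5. These 2 were picked after their values were seen. In the other 2 comparisons 1 target was called in each: BTG2, an antiproliferative gene, was lower in hnCD16 than in CTRL (3.14 against 6.46 CPM, log2 fold change -1.04), and TP53I3 was lower in FR1 than in FR2 (-1.46, edgeR adjusted p = 0.0229). Each of these 2 calls was lost when certain single libraries were left out.

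**Figure D2:**
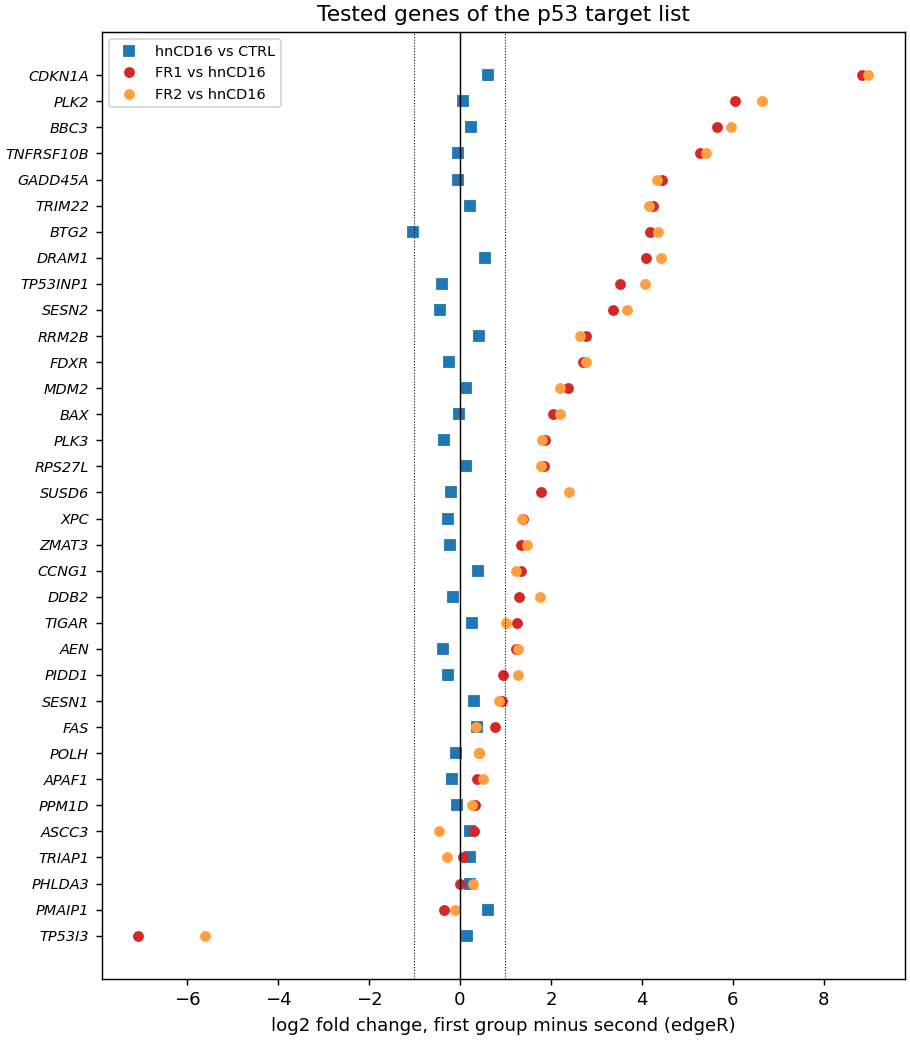
Log2 fold change (edgeR, first group minus second) of the 34 tested genes on the p53 target list, with squares for hnCD16 against CTRL and circles for FR1 and FR2 against hnCD16. Dotted lines mark -1 and 1. CDKN1A, PLK2, BBC3, TNFRSF10B, GADD45A, TRIM22, BTG2 and DRAM1 lie between 4.08 and 8.84 for FR1 against hnCD16, PMAIP1 at -0.36 and TP53I3 at -7.07.

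The p53 consensus within 2 mismatches was present in the 2500 upstream bases of 13 of the 31 listed targets that have a start in the RefSeq table (41.9%), beside 7.49% of all 27305 genes. For the list of CDK, cyclin and RB genes the share was 3 of 35 (8.57%). A match of letters is a description and not a site of binding. The target list was compiled from knowledge of p53, but with earlier results of these data known. The search itself used genome sequence only.

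Of the p53 regulators 17 were tested, and 3 were called in FR1 against hnCD16 (2 higher and 1 lower) and 4 in FR2 against hnCD16 (2 and 2), and the list's median was -0.09 and -0.18. That is 17.6% and 23.5% of the list, beside 38.3% and 39.5% of all genes. ATR, a kinase that responds to stalled replication, had means of 41.8 CPM in CTRL, 49.8 in hnCD16, 141 with FR1 and 106 with FR2, and was higher in FR1 than in hnCD16 by a log2 fold change of 1.5 (edgeR adjusted p = 1.44e-07). The ATR call in FR2 against hnCD16 was lost on log2(TPM + 1) in limma (0.98) and without the second hnCD16 library (0.99). HIPK2, a kinase that phosphorylates p53, rose by 1.06 and 1.49 from hnCD16 to FR1 and FR2 (edgeR adjusted p = 1.47e-10 and 8.19e-13), and its log2 fold changes from CTRL, 0.50 and 0.93, stayed under the threshold. The HIPK2 call in FR1 was lost with library size only (0.98), in both limma fits (0.80 and 0.97) and without the third hnCD16 library (0.96).

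SIRT1, a deacetylase, rose from 29.3 CPM in CTRL to 61.2 in FR1 and 61.7 in FR2 (log2 fold change 1.06 and 1.08, but 0.87 and 0.94 with library size only and 0.77 to 0.84 in the limma fits, under the threshold), and COP1, another ligase for p53, fell from 79.5 in hnCD16 to 35.1 in FR2 (-1.18). TP63, a p53 relative, fell from 2.35 CPM in hnCD16 to 0.729 in FR1 and 0.946 in FR2 (-1.68 and -1.31, edgeR adjusted p = 4.52e-05 and 3.05e-04). On log2(TPM + 1) in limma these TP63 differences were -0.54 and -0.46, under the threshold. TP73, another relative, was not tested, with 24 counts over the CTRL libraries, 22 over hnCD16, 1 over FR1 and 0 over FR2.

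CDKN2A (chr9:21967752-21995301) had 5, 7 and 10 counts in CTRL, 7, 6 and 5 in hnCD16, 941, 799 and 808 with FR1, and 1088, 1037 and 974 with FR2. On the per-length scale this was at most 0.86 TPM in CTRL and hnCD16, 74.2 to 86.9 TPM in FR1 and 90.1 to 101 TPM in FR2, close to the level of CDKN1A in FR1 (84.0 to 93.1 TPM). The groups fell into a low pair that overlapped and a high pair that did not. The log2 fold change from hnCD16 was 7.21 for FR1 (standard error 0.149, edgeR adjusted p = 9.33e-18) and 7.47 for FR2 (0.145, edgeR adjusted p = 3.87e-18), and FR1 was below FR2 by a log2 fold change of -0.26 (edgeR adjusted p = 0.00693).

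Of the 7 CDKN2A transcripts in the table, 5 were tested, and all 5 were called higher in FR1 and in FR2 than in CTRL and than in hnCD16. With the replicate number added to the fit, XM_011517675 and NM_058197 lost the call in all 4 comparisons, and NM_001363763 lost it in FR1 against hnCD16 (edgeR adjusted p = 0.0530), as it did without any 1 of those 6 libraries (0.0551 to 0.0900). Among all 56640 tested transcripts the share called higher was 7.39% for FR1 against CTRL, 7.45% for FR2 against CTRL, 7.52% for FR1 against hnCD16 and 7.78% for FR2 against hnCD16. The 5 tested CDKN2A transcripts had at most 6 counts in any CTRL or hnCD16 library and passed the filter through FR1 and FR2. A call for them could thus only be higher. They also divide the reads of 1 gene, so they are not separate evidence. NM_058195, the p14ARF transcript, carried most of the gene's counts in FR1 and FR2, and 45.9% in CTRL and 23.8% in hnCD16, where the gene had few counts. It had 1, 4 and 6 counts in CTRL, 1, 2 and 1 in hnCD16, 828, 697 and 730 with FR1, and 976, 932 and 849 with FR2. In FR1 this was 88.5% ± 1.59 (SD, n = 3) of CDKN2A counts and in FR2 88.9% ± 1.51 (SD, n = 3), and its log2 fold change from hnCD16 was 9.10 (standard error 0.470, edgeR adjusted p = 3.97e-07) and 9.38 (0.474, edgeR adjusted p = 3.01e-07).

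NM_058197, a variant that begins with the first exon of p16INK4a, had 0 counts in all 6 CTRL and hnCD16 libraries, 18, 17 and 15 in FR1, and 12, 24 and 29 in FR2. Set against a floor of 3 counts over the group, FR1 was at least 17.8-fold higher than hnCD16, and FR2 at least 22.8-fold higher, and its share of CDKN2A counts was 1.96% in FR1 and 2.12% in FR2. The edgeR adjusted p with the replicate number in the fit was 0.0549 to 0.0600. NM_001363763 had 2 to 5 counts in CTRL and hnCD16, 21 to 24 with FR1 and 25 to 36 with FR2, and XM_011517676 had 0 to 2, 31 to 42 and 38 to 53. The main p16INK4a transcript, NM_000077, was not among the 7 CDKN2A transcripts that the authors listed. Every transcript they listed had counts in some library. Whether NM_000077 was missing from their reference or was given no counts is not known here. How CDKN2A reads divide between p14ARF and p16INK4a thus cannot be read from these shares.

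**Figure D3:**
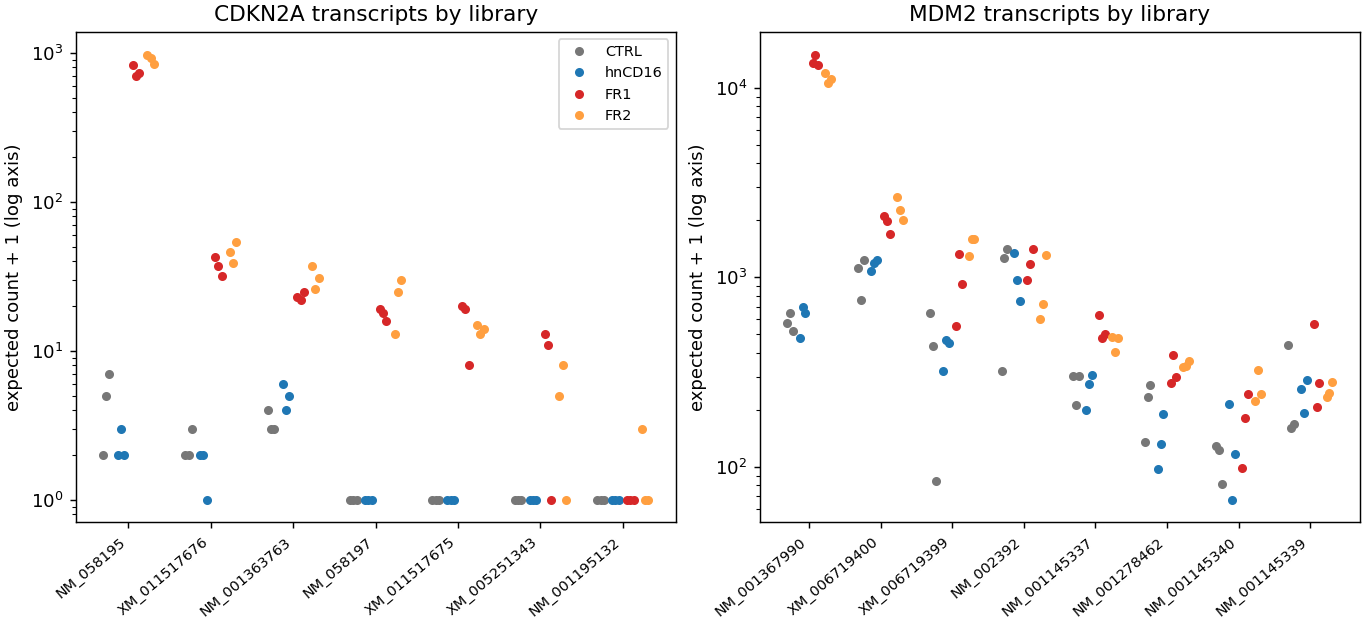
Expected counts (plus 1, log axis) of the CDKN2A transcripts and the MDM2 transcripts, with 1 point per library and groups in colour. NM_058195 is at 1 to 6 counts in CTRL and hnCD16 and 697 to 976 in FR1 and FR2, and NM_001367990 is the MDM2 transcript with the widest gap between the same pairs of groups.

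CDKN2B (chr9:22002903-22009305), next to CDKN2A, stayed low everywhere. The counts were 1, 2 and 4 in CTRL, 1, 0 and 2 in hnCD16, 13, 8 and 9 with FR1, and 20, 10 and 22 with FR2, and no library exceeded 0.57 TPM. The fusion receptor groups overlapped each other and lay above both other groups. The 30 counts in FR1 and 52 in FR2 against 3 in hnCD16 gave ratios of 10.7 (95% counting interval 3.33 to 54.8) and 18.2 (5.90 to 91.2), with edgeR adjusted p = 3.09e-04 and 9.05e-06. With log2(TPM + 1) in limma the difference was 0.29 in FR1 and 0.49 in FR2, under the fold threshold. The long antisense gene that runs through this locus was not analysed here, and without strand its reads and those of CDKN2B cannot be told apart.

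The other inhibitors were expressed in all 4 groups. CDKN2C (chr1:50960745-50974634) fell in the order CTRL, hnCD16, FR2, FR1, with 1422, 1421 and 1349 counts, then 1042, 1042 and 1015, then 766, 780 and 726, and last 631, 596 and 701. No neighbouring groups in this order overlapped. The log2 fold change from CTRL was -0.93 for FR1 (standard error 0.0584, edgeR adjusted p = 8.26e-11) and -0.71 for FR2 (0.0575, edgeR adjusted p = 2.52e-09). It passed the fold threshold in FR1 against CTRL when counts were scaled by library size only (-1.12).

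CDKN1B (chr12:12685498-12722369) was lower in hnCD16 than in CTRL, as CDKN2C was, and higher in FR1 and FR2, with 39.6, 36.2 and 34.3 CPM in CTRL, 30.6, 33.7 and 30.8 in hnCD16, 43.0, 44.6 and 42.2 with FR1, and 52.4, 50.8 and 51.4 with FR2. FR2 was above hnCD16 by 1.63-fold (log2 fold change 0.70, edgeR adjusted p = 6.03e-09) and above FR1 (log2 fold change of FR1 against FR2 -0.25, edgeR adjusted p = 0.00294). Neither CDKN1B nor CDKN2C is near the sizes seen for CDKN1A and CDKN2A.

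Among related inhibitors on the wider list, CDKN2D (p19) separated the fusion receptors: it had 774 to 852 counts in CTRL, 617 to 646 in hnCD16, 297 to 374 with FR1 and 662 to 742 with FR2, and was lower in FR1 than in FR2 (log2 fold change -1.08, standard error 0.0785, edgeR adjusted p = 5.17e-08). CDKN1C (p57) was not tested, with 0 counts over CTRL, 2 over hnCD16, 11 over FR1 and 24 over FR2.

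**Figure D4:**
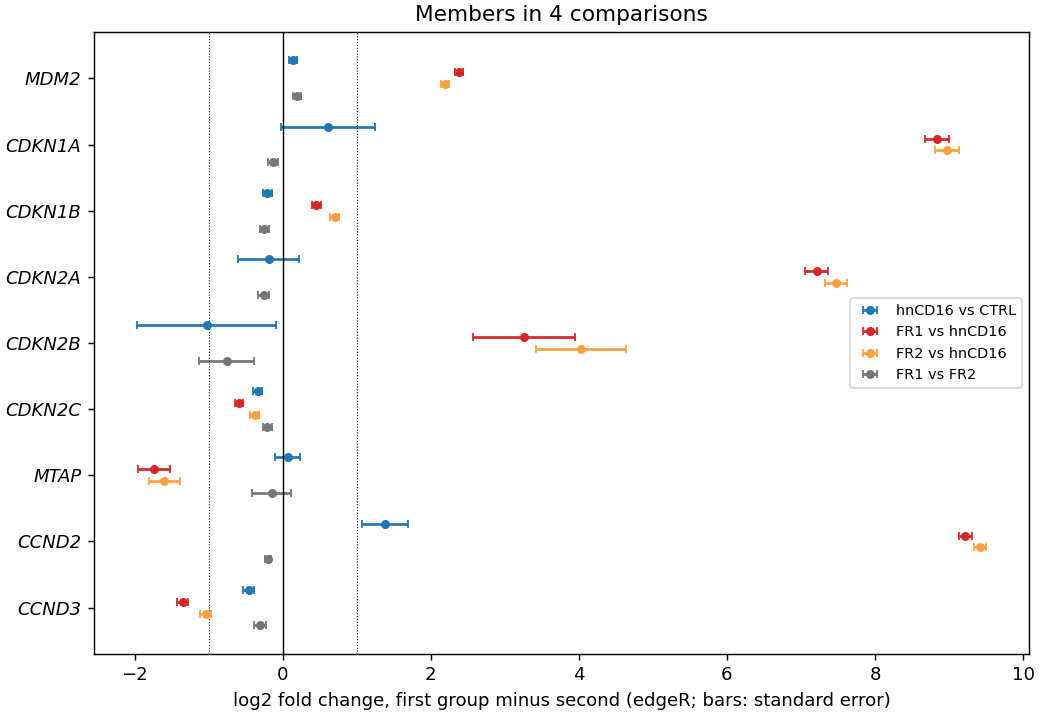
Log2 fold change of the 9 members (edgeR, first group minus second) in 4 comparisons, with standard errors as bars and dotted lines at -1 and 1. FR1 and FR2 against hnCD16 lie side by side for each gene, from 9.22 and 9.42 for CCND2 to -1.74 and -1.60 for MTAP, while FR1 against FR2 stays within 1 of zero.

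The D cyclins changed in opposite directions. CCND2 (chr12:4269771-4305353) had 3, 4 and 3 counts in CTRL, 9, 7 and 9 in hnCD16, 4735, 4653 and 4805 with FR1, and 5638, 5374 and 5589 with FR2. No groups overlapped. The sums against 25 counts in hnCD16 gave ratios of 608 (95% counting interval 411 to 939) in FR1 and 698 (473 to 1080) in FR2, and the fitted log2 fold changes were 9.22 and 9.42 (edgeR adjusted p = 1.53e-21 and 1.39e-21). Per unit of length CCND2 stood at 70.0 to 72.7 TPM in FR1 and 78.8 to 84.2 TPM in FR2, and at most 0.14 TPM in hnCD16.

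The call of CCND2 between hnCD16 and CTRL (log2 fold change 1.38, standard error 0.316, edgeR adjusted p = 0.0161) rests on sums of 25 and 10 counts. It was lost when the third CTRL library was left out (1.29, edgeR adjusted p = 0.0503), and with these 2 groups fitted alone the gene had too few counts to be tested. FR1 was below FR2 by a log2 fold change of -0.20 (edgeR adjusted p = 0.00142).

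CCND3 (chr6:41934934-42050357) had 188, 175 and 158 CPM in CTRL, 138, 122 and 118 in hnCD16, 53.2, 45.4 and 49.4 with FR1, and 63.3, 61.7 and 58.7 with FR2. The groups did not overlap and stood in the order CTRL, hnCD16, FR2, FR1. The log2 fold change from hnCD16 was -1.35 for FR1 (standard error 0.0761, edgeR adjusted p = 1.61e-11) and -1.04 for FR2 (0.0748, edgeR adjusted p = 4.92e-10). The second value lay so near the fold threshold that it fell under it without the first hnCD16 library (-0.97) and in the fit of these 2 groups alone (-0.99). In TPM, CCND3 exceeded CCND2 in CTRL and hnCD16 (112 to 182 against at most 0.14) and was below it in FR1 and FR2 (41.0 to 57.4 against 70.0 to 84.2). The third D cyclin, CCND1, was not tested, with 15, 11, 9 and 10 counts over the CTRL, hnCD16, FR1 and FR2 libraries.

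The wider list covers the partners and targets of the D cyclins. Of the 42 listed CDK, cyclin and RB genes, members included, 40 were tested, and 8 were higher and 5 lower in FR1 than in hnCD16, the same numbers as in FR2 against hnCD16. The median over the list was -0.10 and -0.12 on the log2 scale. Against CTRL, 8 were higher and 6 lower in FR1, and 7 were higher and 6 lower in FR2. With 35.0%, 32.5%, 32.5% and 32.5% of the list called in FR1 and FR2 against CTRL and against hnCD16, the shares were near those of all genes.

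CDK6, a kinase that D cyclins activate, fell from 655 CPM in CTRL and 533 in hnCD16 to 217 in FR1 and 177 in FR2 (log2 fold change from hnCD16 -1.30 and -1.59, edgeR adjusted p = 3.23e-11 and 1.86e-12). TFDP2, a dimer partner of E2F factors, fell from 578 CPM in hnCD16 to 72.9 for FR1 (-2.99, edgeR adjusted p = 9.25e-19) and 84.3 for FR2 (-2.78). SKP2, which directs p27 to destruction, fell from 243 CPM in hnCD16 to 91.1 and 97.5 (-1.42 and -1.32), while CKS1B, its cofactor, rose from 149 to 302 and 306 (1.02 and 1.04). The CKS1B call in FR1 was lost with library size only (0.94), and both calls were lost in limma (0.95 and 0.98). CCNA1, a cyclin of the germ line, had 34 counts over the hnCD16 libraries and 0 over FR1 and FR2, at least 10.6-fold lower in FR1.

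CCNE1, a cyclin that drives CDK2, rose from 12.1 CPM in hnCD16 to 27.7 in FR1 and 31.2 in FR2 (log2 fold change 1.19 and 1.36, edgeR adjusted p = 2.62e-11 and 2.95e-12). Its FR1 call against CTRL was lost with library size only (0.87) and in both limma fits (0.79 and 0.83). The FR2 call against CTRL was lost on log2(TPM + 1) in limma (0.96). E2F4, a repressive E2F factor, rose by 1.46 and 1.19 from hnCD16 and E2F6, another repressor, by 1.22 in FR1. RB1 had 117 CPM in CTRL, 112 in hnCD16, 60.6 with FR1 and 57.5 with FR2, and its call in FR2 against CTRL (-1.02) was lost without the second or the third CTRL library or the third FR2 library, at values from -0.99 to -0.97. CDC25B, a phosphatase that activates CDKs, had a log2 fold change of 1.05 from hnCD16 to FR2, which fell under the threshold in the limma fits (0.97 and 0.98).

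Among genes that E2F factors switch on in S phase, 21 were tested, and 2 were called in each of the 4 comparisons across the pairs, CCNE1 higher and CDC6 lower. That is 9.52% of the list in each, beside 38.0% to 39.5% of all genes. CDC6, which loads the replication helicase, fell from 249 CPM in hnCD16 to 90.5 in FR1 and 84.2 in FR2 (log2 fold change -1.46 and -1.57, edgeR adjusted p = 1.39e-13 and 5.07e-14). The median over the list was -0.22 in FR1 and -0.28 in FR2 against hnCD16.

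MTAP (chr9:21802636-21937651) was expressed at a low level in all groups, with 55, 56 and 61 counts in CTRL, 64, 58 and 47 in hnCD16, 19, 16 and 12 with FR1, and 16, 20 and 17 with FR2, and never above 1.04 TPM. The low pair and the high pair did not overlap, while the groups within each pair did. The log2 fold change from hnCD16 was -1.74 for FR1 (standard error 0.215, edgeR adjusted p = 7.78e-07) and -1.60 for FR2 (0.210, edgeR adjusted p = 1.65e-06), and with log2(TPM + 1) in limma it was -0.59 and -0.56, under the fold threshold. The difference between hnCD16 and CTRL was 0.07 and changed sign with library size only (-0.04). The table holds 1 MTAP transcript, where RefSeq lists 8.

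Of 14 listed methionine salvage and methylation genes, MTAP included, 5 were lower in FR1 than in hnCD16 and 6 in FR2, and none was called higher. These are 35.7% and 42.9% of the list, where 19.6% and 19.8% of all genes were called lower. In either direction 38.3% and 39.5% of all genes were called. Without MTAP, 13 genes were tested, with 4 lower in FR1 and 5 in FR2. MRI1, the next enzyme of the salvage pathway, fell from 58.3 CPM in hnCD16 to 15.9 in FR1 and 18.9 in FR2 (log2 fold change -1.88 and -1.62, edgeR adjusted p = 3.11e-13 and 1.61e-12). CLNS1A, a partner of the methyltransferase PRMT5, fell from 255 CPM to 48.2 and 44.5 (-2.41 and -2.52), and RIOK1, another partner, from 117 to 42.4 and 30.7 (-1.46 and -1.93). APIP, a salvage enzyme, fell by 1.24 and 1.19 on the log2 scale from hnCD16, and WDR77, also a PRMT5 partner, by 1.19 in FR2. PRMT5 itself had means of 102, 98.4, 82.6 and 55.5 CPM in CTRL, hnCD16, FR1 and FR2, and was picked after its values were seen.

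The genes around CDKN2A moved in both directions. The list held 39 genes lying up to 6530 kilobases away, with the members CDKN2A, CDKN2B and MTAP included. Of these, 34 were in the table and 25 were tested. Between FR1 and hnCD16, 11 were higher, 5 lower and 9 not called, that is 64.0% called beside 38.3% of all genes. For FR2 against hnCD16 the counts were 10 and 5 (15 of 25, beside 39.5% of all genes), and the list's median was 0.92 in FR1 and 0.58 in FR2. Without the members 22 genes were tested, with 9 higher and 4 lower in FR1 than in hnCD16. For FR2 against hnCD16 these counts were 8 and 4. Among them ELAVL2, without counts in CTRL and hnCD16, could only be called higher. PLIN2, with few counts in FR1 and FR2, could only be called lower. Directly beside the raised CDKN2A and CDKN2B lay the lowered MTAP, and the next tested gene on that side, KLHL9, had log2 fold changes from hnCD16 of 0.09 and -0.27.

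HACD4, 996 kilobases from the annotated end of CDKN2A where its outer start lies and a member of the fatty acid elongation enzymes, fell from 28.3 CPM in hnCD16 to 1.69 in FR1 and 1.38 in FR2 (log2 fold change -4.06 and -4.35, edgeR adjusted p = 1.16e-14 and 6.56e-15). PLIN2, the lipid droplet coat protein, fell from 76.0 CPM to 0.191 and 0.246 (-8.58 and -8.24). On the other side the next tested gene, ELAVL2, a neuronal RNA-binding protein, had 0 counts in CTRL and hnCD16, 14 over FR1 and 96 over FR2, at least 4.99-fold and 33.6-fold higher than hnCD16, and FR1 was below FR2 (log2 fold change -2.72, edgeR adjusted p = 1.37e-04). ACER2, a ceramidase, was also lower in FR1 than in FR2 (-1.13), a call lost without the second FR1 library (-0.98), without the third FR2 library (-0.96) and in both limma fits (-0.34 and -0.75). CNTLN fell by 2.41 and 2.0 on the log2 scale from hnCD16, and LINGO2, IFT74, DENND4C and HAUS6 rose from hnCD16 in both FR1 and FR2, with log2 fold changes of 1.33 to 2.88 (LINGO2, a low gene, was at 0.57 and 0.53 on log2(TPM + 1) in limma). C9orf72, with 1.05 and 1.31, lost its FR1 call with library size only (0.97), in limma (0.87 and 0.97) and without the second hnCD16 library (0.98). SH3GL2, with 1.13 and 2.03, lost its FR1 call in DESeq2 (adjusted p = 0.106), with no filter on low counts (edgeR adjusted p = 0.0573), in both limma fits (0.10 and 0.62) and without the second hnCD16, the third hnCD16 or the first FR1 library (0.85, 1.0 and 0.91). RRAGA, with 1.02 and 1.01, lost both calls with library size only (0.94 and 0.99), in limma (0.92 to 0.95) and without certain single libraries (0.97 to 0.99). PLAA was called in FR1 against hnCD16 (1.09, under the threshold in limma at 0.93 and 0.97), and CCDC171 only in FR1 against CTRL (1.36, and 0.78 on log2(TPM + 1) in limma). PSIP1 passed only against CTRL (1.09 in FR1 and 1.04 in FR2), and both calls were lost with library size only (0.89 and 0.90), in limma (0.73 to 0.77) and without the first CTRL library (0.98 and 0.93), the FR2 call also without the third FR2 library (0.98). The genes IFNE, DMRTA1, TUSC1, EQTN, TEK, MOB3B, SAXO1, ADAMTSL1 and BNC2 had too few counts to be tested.

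**Figure D5:**
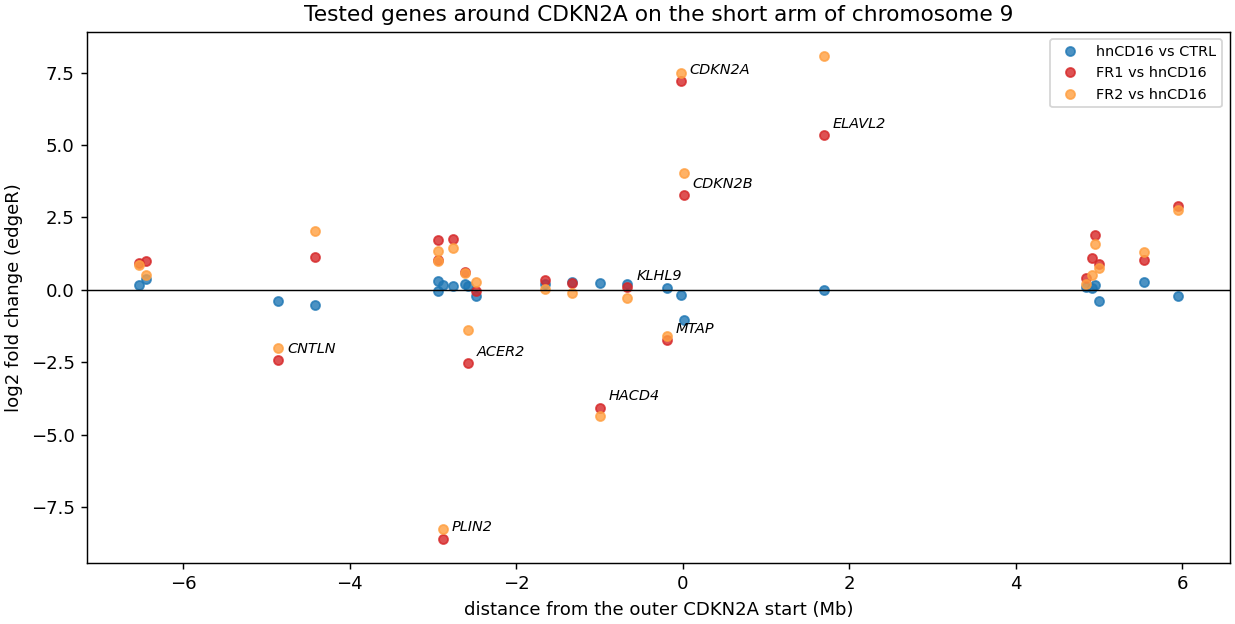
Log2 fold change (edgeR) of the 25 tested genes around CDKN2A against their distance from its outer start in megabases, for hnCD16 against CTRL and for FR1 and FR2 against hnCD16. CDKN2A and CDKN2B lie at 3.26 to 7.47, MTAP beside them at -1.74 and -1.60, and genes farther out lie on both sides of zero (ELAVL2 is a fitted value against groups at 0 counts).

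The genes with the most similar pattern were found by the Euclidean distance between centred log2(CPM + 0.5) profiles over the 12 libraries, among 12339 other genes with a mean of at least 1 CPM. For MDM2 they were ABCC4 and FAM3C (distances 0.276 and 0.310), for CDKN1A SGK1 and ADAP1 (0.513 and 0.524), and for CDKN2A HEG1 and TBL1X (0.384 and 0.413). For CCND2 they were HLA-DRB1 and GZMH (0.651 and 0.720), both of families with near-identical copies and so uncertain. CDKN1B was nearest to ELMO2 and TRPC4AP (0.210 and 0.212), CDKN2C to EEF2K and MLLT6 (0.185 and 0.191), CCND3 to DHRS11 and SEPTIN9 (0.232 and 0.251), and MTAP to H2AZ2 and XXYLT1 (0.371 and 0.389). As an example of what such nearness means, SGK1, a kinase, had means of 1.36 CPM in CTRL, 1.63 in hnCD16, 303 with FR1 and 296 with FR2. CDKN2B, under 1 CPM on average, was not compared.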

How the data were processed

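RNA from transduced YT cells was sequenced in 12 libraries, 3 per group. According to the study's methods, ribosomal RNA was depleted (the labels also name oligo(dT) beads), and the authors mapped reads to GRCh38.p13 with HISAT2 2.1.0 and quantified them with RSEM 1.3.1; Bowtie2 2.3.4.3 and DESeq2 1.4.5 are also named in the submitters' processing notes. The expected counts that the authors deposited come from RSEM, per gene and per transcript, are not normalized, and divide reads shared by similar transcripts, so few counts of a transcript can be a matter of that division. The deposited TPM values were made by the authors from the same reads and are scaled by length. Whether counting used strand is not given in the sources used here. In each table, 24 further per-sample columns (FPKM and normalised counts) were not used, nor were the authors' own comparison columns of fold changes and p-values.

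After rounding to integers, these counts entered edgeR 4.0.16 in R 4.3.3 (quasi-likelihood test, TMM normalization, filterByExpr by group) in 1 fit of all 4 groups, with Benjamini-Hochberg adjustment over all tested genes or transcripts of each of 6 comparisons; the thresholds are those of the study, which names DESeq2 as its test. CPM values use TMM-scaled library sizes, from totals of 17714550 to 18729013 counts, and a floor of 3 counts over a group was used for bounds. Counting intervals are exact 95% intervals of the share of counts and, like the floor, cover counting error only. On simulated counts over 13412 genes, 200 genes above a minimum count were raised in FR1 by more than the fold threshold. The test called 100% of these changed genes. Recovery of such large changes was easy, so this checks the procedure only and says nothing about genes near the floor or changes near the threshold. The text names all members, the genes of the regulator, CDK, chromosome 9 and salvage lists that were called in a comparison or not tested, the 4 highest and 4 lowest called genes of the p53 and E2F target lists in FR1 against hnCD16 with a mean of at least 1 CPM, and the 2 genes nearest in pattern to each member. Members and lists were chosen with earlier results of these data known. Coordinates of genes are from GENCODE release 44 on GRCh38 by symbol. Start regions are from RefSeq (GRCh38.p14), with 8 of the 9 members matched (not CCND2), and their bases matched the genome sequence at all 35116 starts. Figures were drawn with matplotlib 3.10.9. The fits were repeated with DESeq2 1.42.0, with limma 3.58.1 (TPM on a log2 scale, pseudocount 1 or 0.1), with other scalings and filters, fits of 2 groups, a replicate block and leaving out each library.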

Additional observations from a re-analysis of the deposited data

How the results depend on the processing

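The number of members called in FR1 or FR2 against CTRL or hnCD16 stayed at 7 or within 1.5 times of it, except that it was 3 when at least 10 counts were required in every library, since CDKN1A, CDKN2A, CDKN2B and CCND2 were then not tested. In hnCD16 against CTRL it was 0 with that filter, with only the 2 groups fitted, with limma at either pseudocount and without the third CTRL library (0 to 1 over single libraries left out), and 5 with no fold threshold. In FR1 against FR2 it was 6 with no fold threshold and 0 to 1 over single libraries left out.

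For the p53 targets, the count in hnCD16 against CTRL was 0 with limma on log2(TPM + 1) and 0 to 1 over single libraries left out (0 without the first CTRL or the third hnCD16 library). In FR1 against FR2 it was 0 with the 10-count filter, with only the 2 groups fitted and with limma on log2(TPM + 1), and 0 to 1 over single libraries. For the CDK, cyclin and RB genes, hnCD16 against CTRL gave 0 with the 10-count filter, only the 2 groups fitted and either limma fit, and 0 to 1 over single libraries (0 without the third CTRL library). The 10-count filter gave 9 in FR1 against CTRL and 8 in each of the other FR comparisons with CTRL or hnCD16, and FR1 against FR2 gave 1 to 2 over single libraries. For the chromosome 9 genes, limma on log2(TPM + 1) gave 8 in each of these 4 comparisons, and the 10-count filter gave 9 in FR2 against CTRL, 10 in FR1 against hnCD16 and 8 in FR2 against hnCD16. FR1 against FR2 gave 1 with DESeq2, 1 with the 10-count filter, 0 with limma on log2(TPM + 1) and 1 to 3 over single libraries. The cause of these shifts was not tested beyond the smaller number of genes that a filter leaves.

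On log2(TPM + 1) in limma, CDKN2B was 0.24 and 0.43 in FR1 and FR2 against CTRL and 0.29 and 0.49 against hnCD16, MTAP -0.63, -0.61, -0.59 and -0.56 in the same order, and the CDKN2A transcript XM_011517675 0.98, 0.90, 0.98 and 0.90, all under the fold threshold, since a pseudocount shrinks changes of low genes. CDKN2C in FR1 against CTRL passed the threshold with library size only (-1.12), log2(TPM + 1) (-1.07) and log2(TPM + 0.1) (-1.09). CCND2 in hnCD16 against CTRL was 0.10 and 0.57 in the limma fits and 1.29 to 1.5 over single libraries left out. CCND3 in FR2 against hnCD16 was -0.99 with the 2 groups alone and -1.08 to -0.97 over single libraries. CDKN2B in FR1 against FR2 ranged from -1.04 to -0.55, and was called only without the second FR2 library. NM_001363763 in FR1 against hnCD16 ranged from 2.37 to 2.73 and lost its call without any 1 library of the pair. Signs changed for values that were not called: CDKN2A in hnCD16 against CTRL (-0.39 to 0.07, positive without the third CTRL library), MTAP in hnCD16 against CTRL (-0.04 with library size only and with log2(TPM + 1), -0.08 with log2(TPM + 0.1), and -0.04 to 0.20 over single libraries, negative without the first hnCD16 library) and MTAP in FR1 against FR2 (-0.34 to 0.02, positive without the third FR1 library).

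The replicate numbers were not shown to pair libraries, with correlations of same-numbered deviations of 0.0623 to 0.171 in hnCD16 against CTRL and means of -0.0299 to 0.0531 in the other comparisons. When this number entered the fit as a replicate block, XM_011517675 lost its call in FR1 and FR2 against CTRL (6.89 and 6.80) and against hnCD16 (6.89 and 6.80), NM_058197 likewise (7.16 and 7.47 against both), and NM_001363763 in FR1 against hnCD16 (2.57). DESeq2 called 32 genes in hnCD16 against CTRL where edgeR called 72, and scaling by library size only moved the median of all genes by more than 0.1 in 3 comparisons, to -0.12, -0.22 and -0.17 in hnCD16, FR1 and FR2 against CTRL.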
